A study of Mus musculus with 8 samples.

Results

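Whole atrioventricular canals of mouse hearts were profiled on arrays, and 10 Sox genes are described here: Sox4, Sox11 and Sox12 (the SoxC subgroup), Sox5, Sox6 and Sox13 (SoxD), Sox9 (SoxE), and Sox7, Sox17 and Sox18 (SoxF). They were taken by name, as every probe set annotated with only that gene symbol, which gave 10 of 18194 named genes and 37 of the 45101 probe sets on the array. Of these 37, 23 passed the filter on low signal and were tested, at least 1 for each of the 10 genes. The 14 others were above background on at most 3 of the 8 arrays.

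The canal joins atrium and ventricle in the embryo, and its cushions later give rise to valve leaflets. There were 8 samples, and 10 dissected canals were combined for each. The 4 controls were Gata4flox/flox, and the 4 mutant pools were Gata4flox/flox; T2Cre+, also called Gata4T2del. All mice shared the floxed Gata4 alleles and a mixed C57BL6/129 background, and no label gives Cre to the controls. T2Cre is Cre recombinase driven by the promoter of Tie2 (gene symbol Tek), so the deletion was aimed at endothelium and the cushion mesenchyme derived from it, not at the myocardium that the pools also hold. No label used here gives the age of the embryos. Nothing says that pools came from separate litters, so p-values measure the spread between these pools.

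Sox proteins bind DNA through a shared domain, the HMG box, and are sorted into subgroups by its sequence. Endocardial cells that line the canal leave their sheet and become cushion mesenchyme, and Sox9 is a factor of that mesenchyme, where, as in cartilage, it serves growth and matrix production. SoxF factors belong to endothelium. SoxC factors are made by many immature and mesenchymal cells, and mouse embryos without Sox4 or Sox11 have defects of the outflow tract of the heart. SoxD proteins lack a transactivation domain of their own and, in cartilage, work together with Sox9.

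None of the 23 tested Sox probe sets passed the threshold between mutant and control pools, an adjusted p under 0.05 in limma. Of all 27022 tested probe sets, 0.0259% passed as higher and 0.0185% as lower. At an unadjusted p under 0.05, 3 Sox probe sets had higher signal (7.31% of all tested) and 4 had lower signal (5.33% of all tested). The 3 higher ones were those of Sox7, Sox17 and Sox18. The 4 lower ones were a pair of Sox9 probe sets and 1 each of Sox4 and Sox11. Over the 23 probe sets, 6 changes were positive and 17 negative with a median of -0.09 on the log2 scale, while over the whole array 53.8% were positive and 46.2% negative with a median of 0.03. The subgroups are set side by side in the plot of log2 changes, and no test of the difference between subgroups was made.

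**Figure D1:**
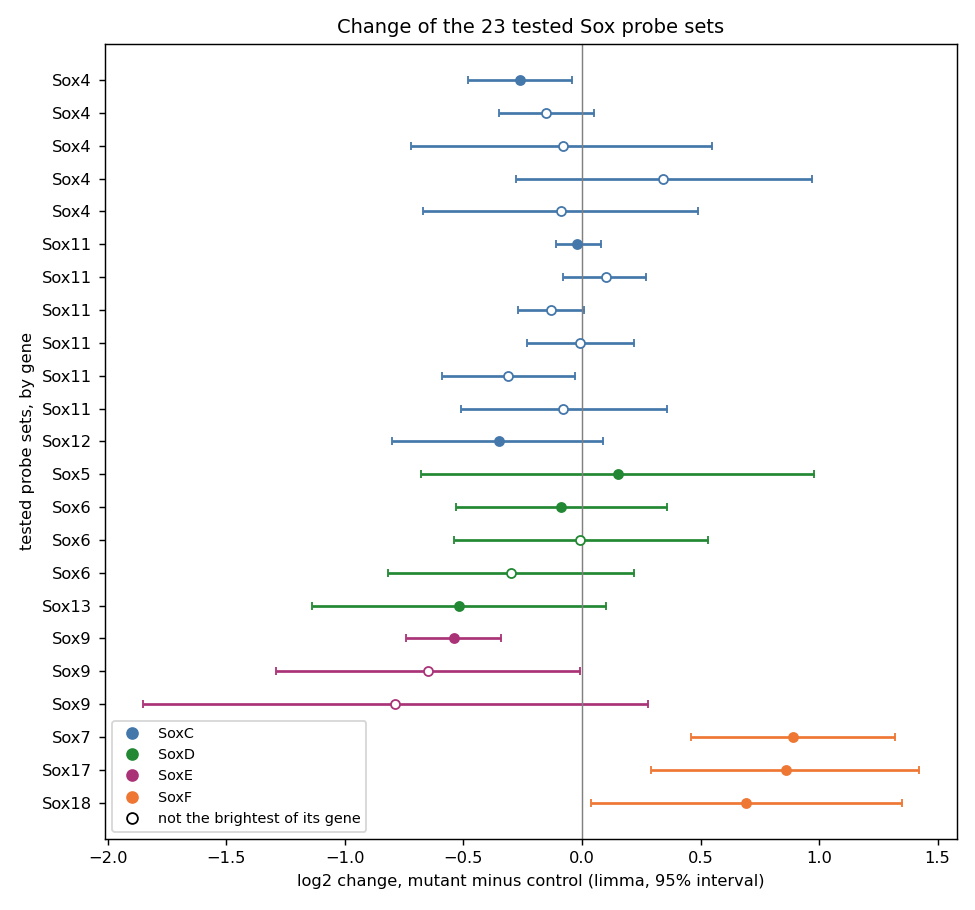
Log2 change of the 23 tested Sox probe sets, mutant minus control (x axis), with 95% intervals from limma, 1 line per probe set and colours for the subgroups. Filled points mark each gene's brightest probe set. The 3 SoxF points lie between 0.69 and 0.89, the 3 Sox9 points between -0.79 and -0.54, and the SoxC and SoxD points between -0.52 and 0.34.

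Levels below are log2 signals after quantile normalization, and a change is the weighted log2 difference between mutant and control arrays with its standard error (SE). Controls 2 and 3 stood apart from the other arrays. Their background, the median signal of 27 bacterial control probe sets, was 158 and 135, whereas controls 1 and 4 had 39.3 and 19.4, and mutant arrays had 4 to 26. On these 2 arrays 19 and 20 of the 37 Sox probe sets were above background, while controls 1 and 4 had 26 and 24, and mutant arrays had 23 to 31. They had the lowest weights in the fit, 0.302 and 0.35, and results for the Sox genes are given with and without them. Among markers of the tissue, 10 of 10 cardiomyocyte genes, 10 of 10 cushion mesenchyme genes and 8 of 10 endothelial genes were above background on all 8 arrays. The brighter probe set of Gata4 changed by -0.15 (SE 0.11, limma adjusted p = 0.585) in these whole canals, and no source used here places it inside or outside the deleted exons, so it does not check the deletion. The dimmer Gata4 probe set, above background on 2 controls and 4 mutants, changed by 0.98 (SE 0.45, limma adjusted p = 0.388).

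Sox9, which switches on collagen and proteoglycan genes in cartilage, had lower values in every mutant pool than in any control pool. On its brightest probe set the control arrays 1 to 4 read 12.76, 12.74, 12.70 and 12.40, and the mutant arrays 1 to 4 read 11.97, 12.16, 12.25 and 11.98. Mutants 2 and 3 were the closest to the controls, and control 4 the closest to the mutants. No overlap in this direction was seen for 1 of the 23 Sox probe sets and for 3.19% of all tested probe sets. The means were 12.65 ± 0.17 and 12.09 ± 0.14 (SD, n = 4 each), and the change of -0.54 (SE 0.10, 95% interval -0.74 to -0.34), to 0.687 of the control level, ranked 13 of 27022 by p but missed the threshold (limma adjusted p = 0.0585). On the scale deposited by the authors the signals were 7070, 5700, 5680 and 5650 in the controls and 4120, 4980, 5170 and 4250 in the mutants.

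Both dimmer Sox9 probe sets also had negative changes, with wide spread. The first read 9.07, 7.15, 9.18 and 8.47 in controls 1 to 4 and 8.25, 8.37, 8.23 and 7.64 in mutants 1 to 4. Control 2, the only array on which it was not above background, lay below every mutant, so the groups overlapped. Its change was -0.65 (SE 0.30, limma adjusted p = 0.388). It was -0.36 without control 1, -0.41 without control 4, -0.43 without mutant 4 and -0.34 at equal weights, and in these 4 fits the unadjusted p was above 0.05 (limma adjusted p = 0.621, 0.576, 0.642 and 0.669). The other was above background on 2 arrays of each group, and its change was -0.79 (SE 0.50, limma adjusted p = 0.523).

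The threshold lay close to the value of Sox9, and small choices moved it across. Under 8 of 19 alternative settings the brightest probe set passed, among them the fits without control 1 (adjusted p = 0.0192), without control 3 (0.0137), without control 4 (0.0169) and without mutant 3 (0.00224), all from limma. In these fits 261, 21, 387 and 39 of all 27022 tested probe sets passed as lower, against 5 in the reported fit. Without controls 2 and 3, at equal weights, the change was -0.49 (limma adjusted p = 0.292). With each array centred on its own median, which shifted the median over the array by 1.13, the brightest Sox9 probe set differed from that median by -0.06 (limma adjusted p = 0.869). Both dimmer Sox9 probe sets passed as lower in the same setting, at -1.04 and -2.21 (limma adjusted p = 0.0031 and 3.14e-05). Relative to that median, 6862 of all 27022 tested probe sets passed as lower there and 3256 as higher.

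**Figure D2:**
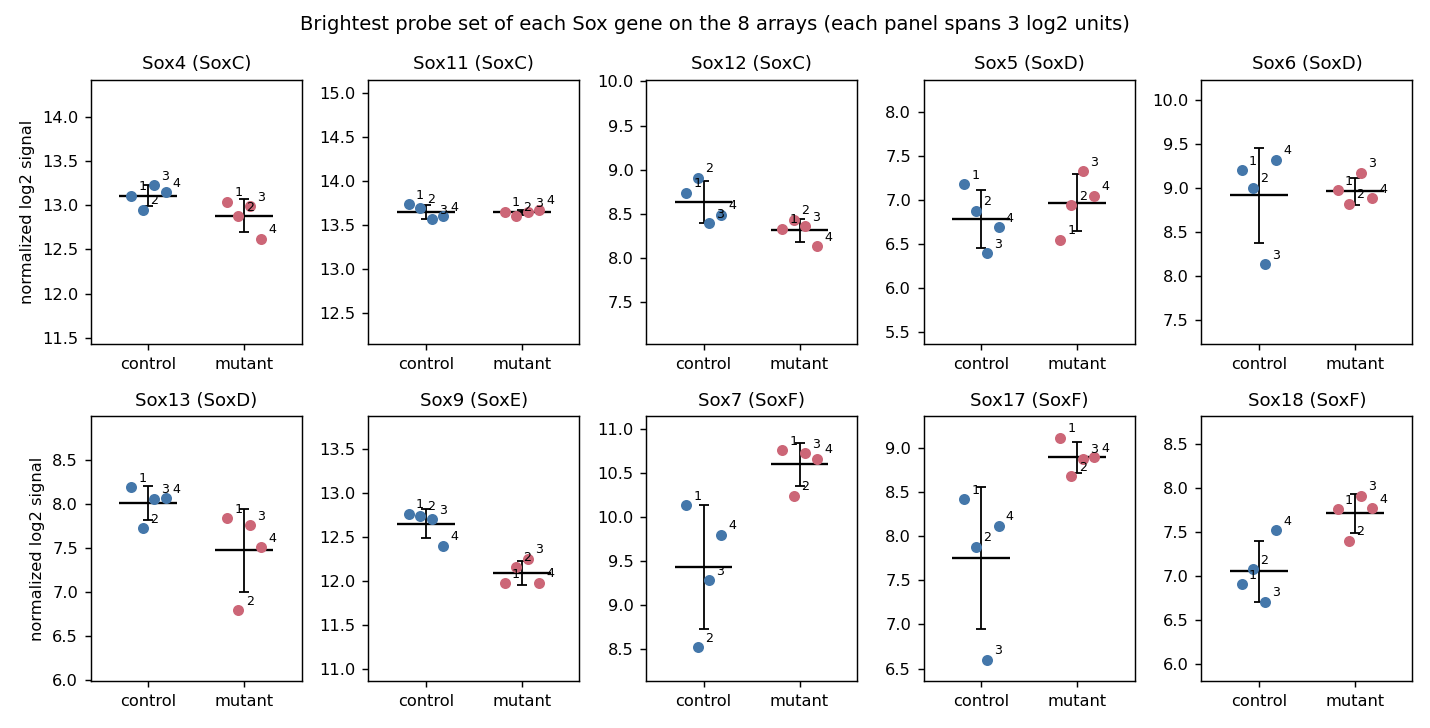
Normalized log2 signal (y axis, 3 log2 units in every panel) of the brightest probe set of each Sox gene in the 4 control and 4 mutant pools, with the replicate number beside each point and bars for mean and SD. Sox9 is lower and Sox7 and Sox17 are higher in all 4 mutants than in any control, while Sox11 lies within 13.56 to 13.73 on all 8 arrays.

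Known targets of SOX9 in cartilage-like matrix were examined as a list of 12 genes, of which 6 were tested on their brightest probe set. Of these 6, 5 had negative changes, with a list median of -0.30 against 0.03 for all tested probe sets, and 0 passed in limma. At an unadjusted p under 0.05, 2 were lower (5.33% of all tested probe sets) and 1 higher (7.31%). Col9a1, a chain of collagen IX, read 9.80, 9.90, 10.04 and 9.37 in controls 1 to 4 and 8.21, 8.76, 8.88 and 8.31 in mutants 1 to 4. The groups did not overlap, and the change was -1.15 (SE 0.22, limma adjusted p = 0.0693). The other collagen IX chain tested, Col9a3, had a change of -1.19 with a much larger error (SE 0.58, limma adjusted p = 0.408), and mutant 4 read 5.37, far below the 6.96 to 7.69 of the other 3 mutants. Hapln1, the link protein that ties hyaluronan to proteoglycans, changed by -0.16 (SE 0.06, limma adjusted p = 0.294) on its brightest probe set, and by -0.90 (SE 0.12, limma adjusted p = 0.00672) and -0.90 (SE 0.15, limma adjusted p = 0.0437) on a pair of dimmer ones that passed. Col2a1, the main collagen of cartilage, went the other way, with 0.39 (SE 0.17, limma adjusted p = 0.363). Its controls 2 and 3 read 9.44 and 9.55, and controls 1 and 4 read 10.56 and 10.46, close to the 10.61 to 10.82 of the mutants. Without controls 2 and 3 the list median was -0.34, and relative to the median on median-centred arrays it was -1.12.

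**Figure D3:**
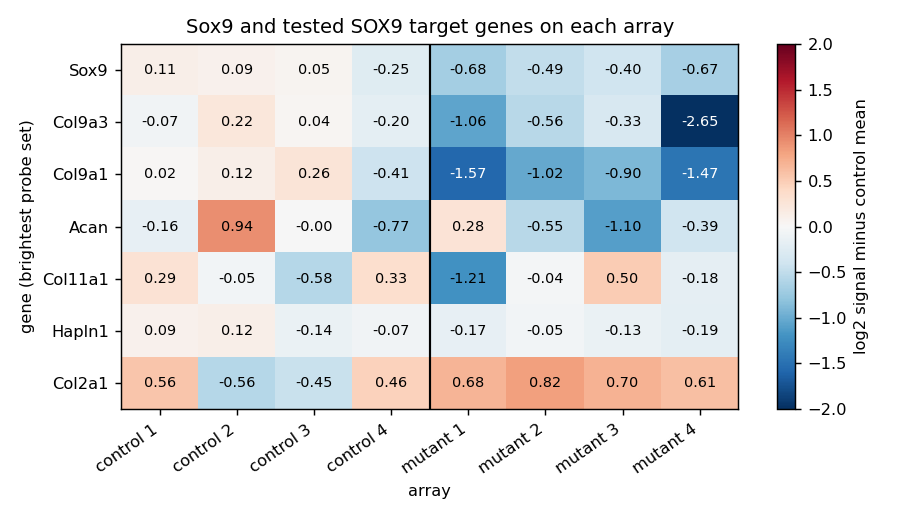
Log2 signal minus the mean of the 4 control arrays (colour and printed value) for Sox9 and the 6 tested SOX9 target genes, 1 row per gene and 1 column per array. Sox9 and Col9a1 are lowest on mutants 1 and 4, with -0.68 and -0.67 for Sox9 and -1.57 and -1.47 for Col9a1, while Col2a1 is low on controls 2 and 3.

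The gene whose pattern over the 8 arrays was most like that of Sox9 was Col9a1, with a Pearson r of 0.987 among 18710 candidate probe sets of other genes above background on at least 6 arrays. It was 0.92 for deviations from the group means and 0.98 over the 6 arrays without controls 2 and 3. Enc1 (0.975) and Cecr2 (0.974) came next. These values are descriptions, since with 8 arrays and so many candidates some high values arise in any case, and all points share the arrays.

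Of 10 markers of cushion mesenchyme, all tested, 8 had negative changes and 2 positive, with a median of -0.38. None passed in limma. At an unadjusted p under 0.05, 5 had lower signal (5.33% of all tested probe sets) and 0 higher signal (7.31%). The summed normalized signal of the list was 42860 to 44475 on the controls and 33723 to 40330 on the mutants, and 0 of the 10 fell to background on any array. Foxc2, a forkhead factor of mesenchyme, changed by -0.61 (limma adjusted p = 0.0639) and the growth factor receptor Pdgfra by -0.73 (0.0654). The basic helix-loop-helix factor Twist1 changed by -1.33 (limma adjusted p = 0.334) and Vcan by -0.13 (0.351). Without controls 2 and 3, 10 of 10 markers had negative changes, whereas on median-centred arrays, relative to the median of all tested probe sets, 5 were positive and 5 negative with a median of 0.15. Their part in the Sox9 value was not tested, and in whole canals fewer cells of a type and less RNA per cell cannot be told apart.

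The 3 SoxF genes had positive changes in the mutant pools, on the only tested probe set of each. Sox7, a factor of early endothelium, read 10.13, 8.52, 9.28 and 9.80 in controls 1 to 4 and 10.76, 10.24, 10.72 and 10.66 in mutants 1 to 4. The groups did not overlap, but mutant 2 and control 1 lay close together, and the lowest controls were 2 and 3. No overlap in this direction was seen for 2 of the 23 Sox probe sets, those of Sox7 and Sox17, and for 4.44% of all tested probe sets. The means were 9.43 ± 0.70 and 10.60 ± 0.24 (SD, n = 4 each), and the change of 0.89 (SE 0.20, 95% interval 0.46 to 1.32), or 1.86-fold, did not pass (limma adjusted p = 0.153). The deposited signals were 1080, 507, 687 and 902 in the controls and 1750, 1150, 1820 and 1650 in the mutants, so that for Sox7 every mutant exceeded every control on this scale too.

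Sox17, a factor of arterial endothelium and of endoderm, gave 8.42, 7.88, 6.60 and 8.12 in controls 1 to 4 and 9.12, 8.68, 8.88 and 8.90 in mutants 1 to 4. Control 3, the lowest, was not above background. The change was 0.86 (SE 0.27, 95% interval 0.29 to 1.42, limma adjusted p = 0.260), and probe sets of this design (suffix x_at) may cross-hybridize. Its deposited signals were 305, 395, 182 and 225 in the controls and 520, 298, 453 and 432 in the mutants, and there the groups overlapped, with control 2 above mutant 2. The other Sox17 probe set was above background on 1 of 8 arrays and was not tested. Sox18, a factor of blood and lymphatic vessels that is altered in the ragged mouse, read 6.91, 7.08, 6.71 and 7.52 in the controls and 7.76, 7.40, 7.91 and 7.77 in the mutants. Mutant 2 lay below control 4, so the groups overlapped, and 2 of 4 controls were above background against 4 of 4 mutants. Its change was 0.69 (SE 0.31, 95% interval 0.04 to 1.35, limma adjusted p = 0.378). The deposited signals of Sox18 were 112, 270, 199 and 128 in the controls and 185, 104, 183 and 154 in the mutants. On that scale controls 2 and 3 exceeded all 4 mutants, and the change, relative to the median change there, was 0.32 (limma adjusted p = 0.577).

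Without controls 2 and 3, at equal weights, the changes were smaller, 0.63 for Sox7, 0.63 for Sox17 and 0.50 for Sox18, with limma adjusted p values of 0.413, 0.527 and 0.745. The changes of Sox7 and Sox17 were 1.5 and 1.61 without control 1 (limma adjusted p = 0.0144 and 0.0191). They were 1.42 for both without control 4 (limma adjusted p = 0.0169 and 0.0295). Both genes passed in these fits, but so did 1402 and 1346 of all 27022 tested probe sets as higher, against 7 in the reported fit. With each array centred on its own median and set against the median of all tested probe sets, Sox7 lay 1.58 above it and Sox17 1.02 above it (limma adjusted p = 1.36e-06 and 0.00304), whereas Sox18 turned to -0.09. Of all 27022 tested probe sets, 3256 passed as higher in that setting. With RNA integrity, measured as 3' over 5' signal, as a covariate, the changes were 0.59 for Sox7, 0.48 for Sox17 and 0.63 for Sox18 (limma adjusted p = 0.361, 0.583 and 0.558), and 1 of the 3, Sox7, kept an unadjusted p under 0.05.

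**Figure D4:**
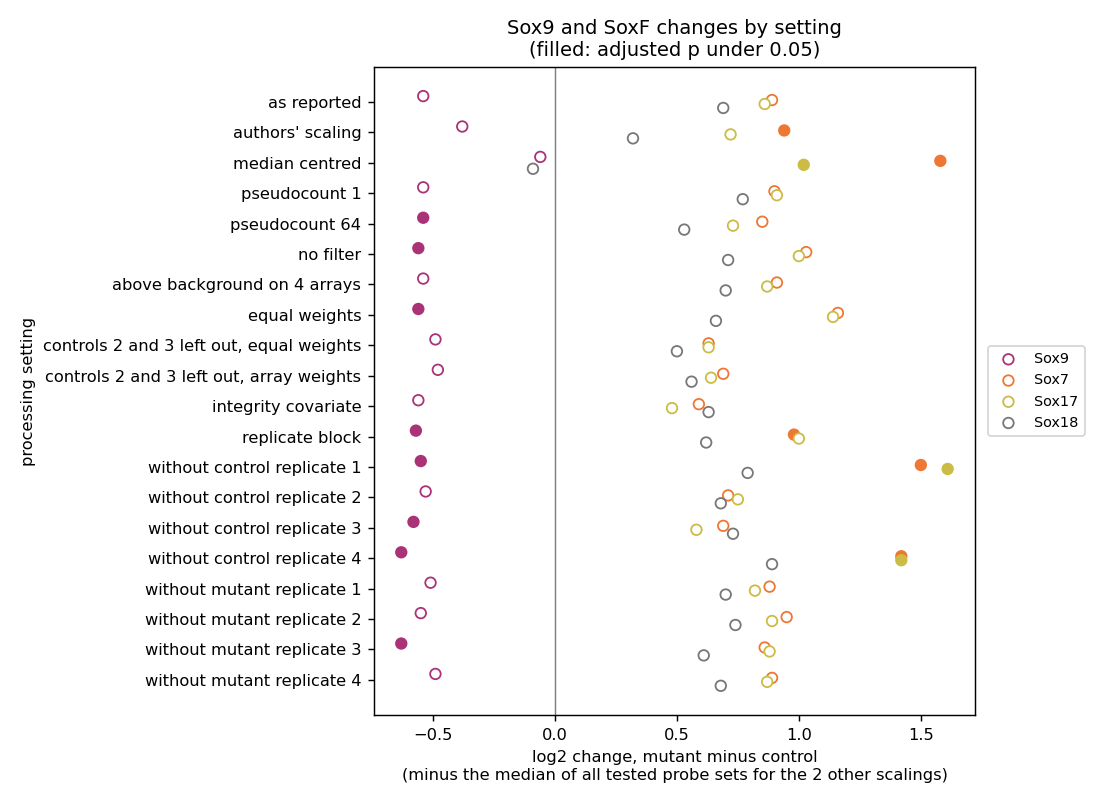
Log2 change of Sox9, Sox7, Sox17 and Sox18 (x axis, mutant minus control, brightest probe set) under the reported fit and 19 alternatives (y axis). Filled points have an adjusted p under 0.05. Sox9 stays between -0.63 and -0.06, Sox7 between 0.59 and 1.58 and Sox17 between 0.48 and 1.61, while Sox18 spans -0.09 to 0.89.

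Other endothelial genes had changes in both directions. Of 10 endothelial markers, 6 had positive and 4 negative changes, with a median of 0.19. Without controls 2 and 3, at equal weights, 7 were positive and 3 negative, with a median of 0.16. At an unadjusted p under 0.05, Tie1 (1.26, limma adjusted p = 0.250) and the sialomucin Emcn (0.59, 0.255) had higher signal (7.31% of all tested probe sets). Tie1 was above background on 2 controls and 4 mutants. It read 7.16, 4.71, 7.13 and 8.15 in the controls and 8.2, 8.5, 8.37 and 8.68 in the mutants. The clearance receptor Npr3 (-0.56, limma adjusted p = 0.250) was lower at an unadjusted p under 0.05 (5.33% of all tested). Dimmer Npr3 probe sets disagreed, with -0.55 (limma adjusted p = 0.275) and 0.72 (0.524), the latter above background on 1 control and 3 mutants. Tek, the gene whose promoter drives Cre here, fell by 0.72 (SE 0.07, limma adjusted p = 0.000172). The summed signal of the list was 14196 to 14622 on the controls and 12022 to 12704 on the mutants, and 8 of the 10 were above background on all arrays. Bright genes dominate such a sum, and Tek was the brightest of the 10, with means of 12.53 on controls and 11.83 on mutants. The part of the endothelial markers in the SoxF values was not tested.

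Of 12 known targets and partners of SoxF factors in endothelium, 11 were tested on their brightest probe set. Among these, 7 had positive and 4 negative changes, with a median of 0.09, and 0 passed in limma. At an unadjusted p under 0.05, 2 were higher (7.31% of all tested probe sets) and 0 lower (5.33%). The adhesion molecule Vcam1 read 11.63, 11.59, 11.93 and 11.97 in the controls and 12.36, 12.08, 12.07 and 11.97 in the mutants. Control 4 and mutant 4 met at the same value, and the change was 0.32 (SE 0.10, limma adjusted p = 0.260). Dimmer Vcam1 probe sets changed by 0.47 (SE 0.12, limma adjusted p = 0.196) and 1.17 (SE 0.35, limma adjusted p = 0.245). The list member Nr2f2 changed by 0.09 (limma adjusted p = 0.773) on its brightest probe set. Its other tested probe sets changed by 0.76 (limma adjusted p = 0.122), 0.87 (0.352), 1.2 (0.298) and -0.20 (0.849). The Nr2f2 probe set with 1.2 was above background on 0 controls and 4 mutants. The arterial ligand Efnb2 changed by 0.38 (SE 0.15, limma adjusted p = 0.334), with controls 2 and 3 lowest at 9.86 and 9.82 and control 1 at 10.71, just under the lowest mutant at 10.73. The patterns most like that of Sox7 over the 8 arrays belonged to Serf2 (Pearson r 0.987), Smg5 (0.984) and Rgs2 (0.98), none of which is on an endothelial list used here.

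The SoxC factors had changes of -0.35 to 0.34. Of their 12 tested probe sets, 2 had positive and 10 negative changes, with a median of -0.08. At an unadjusted p under 0.05, 2 were lower (5.33% of all tested probe sets) and 0 higher (7.31%). Sox4, whose loss in the mouse disturbs formation of the semilunar valves, read 13.11, 12.95, 13.23 and 13.15 in controls 1 to 4 and 13.04, 12.88, 12.99 and 12.62 in mutants 1 to 4 on its brightest probe set. Mutants 2 and 4 read below the lowest control, mutant 4 by the most, and mutants 1 and 3 overlapped the controls. Without mutant 4 the change was -0.14 (limma adjusted p = 0.484), and over all arrays the change was -0.26 (SE 0.10, 95% interval -0.48 to -0.04, limma adjusted p = 0.352). On median-centred arrays, relative to the median of all tested probe sets, the signs of Sox4 (0.22), Sox11 (0.58), Sox6 (0.15) and Sox5 (-0.68) on their brightest probe sets were the opposite of those reported here, with limma adjusted p values of 0.517, 0.0754, 0.689 and 0.16. The other 4 tested Sox4 probe sets had changes of -0.15 to 0.34, and 1 of them was positive.

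Sox11 was the steadiest of the genes on its brightest probe set, which read 13.73, 13.69, 13.56 and 13.60 in the controls and 13.65, 13.60, 13.64 and 13.67 in the mutants. The mutant values fell inside the range of the controls. The change was -0.02 (SE 0.05, limma adjusted p = 0.895), with a 95% interval of -0.11 to 0.08 that holds for this probe set and this normalization only. On the authors' scaling, relative to the median change there, the value was 0.16 (limma adjusted p = 0.226). The other 5 Sox11 probe sets, all above background on 8 arrays, ranged from -0.31 to 0.10. The lowest of them read 10.84, 11.21, 10.78 and 10.40 in the controls and 10.47, 10.16, 10.43 and 10.49 in the mutants (SE 0.13, unadjusted p = 0.0303, limma adjusted p = 0.359). Control 4 lay among the mutants.

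Sox12 had 1 tested probe set, with 8.74, 8.91, 8.39 and 8.49 in the controls and 8.33, 8.43, 8.36 and 8.13 in the mutants. Mutant 2 overlapped the controls, and the change was -0.35 (SE 0.21, 95% interval -0.80 to 0.09, limma adjusted p = 0.492). A second Sox12 probe set was removed by the filter. It was above background on no control and on 3 of 4 mutants, with 5.45, 6.01, 4.79 and 4.68 against 5.84, 6.96, 7.06 and 7.01, so its values point the opposite way. The genes known as SoxC targets, Tubb3 (-0.11) and Tead2 (-0.01), had limma adjusted p values of 0.9 and 0.977.

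The promoters of Sox4 and Sox11 are shown because the deleted factor, Gata4, recognises short GATA words, and these SoxC genes had the brightest probe sets of the 10. Windows of 300 bases, 250 before and 50 after the start of the gene, came from RefSeq (build GRCm38.p6), 5′ to 3′ along the gene, and capitals mark matches on either strand to the word AGATAA, also with T as its first letter, G as its last letter, or both.
Sox4 (chr13:28953650-28953949, minus strand): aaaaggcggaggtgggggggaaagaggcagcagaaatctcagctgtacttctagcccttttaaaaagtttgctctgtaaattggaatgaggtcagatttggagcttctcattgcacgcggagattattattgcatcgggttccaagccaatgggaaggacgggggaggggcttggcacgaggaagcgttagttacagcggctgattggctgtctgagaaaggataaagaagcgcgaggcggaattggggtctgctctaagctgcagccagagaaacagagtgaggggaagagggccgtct
Sox11 (chr12:27342669-27342968, minus strand): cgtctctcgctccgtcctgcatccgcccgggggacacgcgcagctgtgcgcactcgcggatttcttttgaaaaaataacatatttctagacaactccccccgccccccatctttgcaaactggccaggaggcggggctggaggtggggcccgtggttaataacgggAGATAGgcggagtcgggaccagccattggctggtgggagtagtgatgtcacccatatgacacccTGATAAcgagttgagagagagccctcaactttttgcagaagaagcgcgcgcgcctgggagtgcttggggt
Sox11 held 2 matches, 84 and 20 bases before the start, and Sox4 held 0. Of all 32851 windows in the RefSeq set, 29.8% held such a word. Windows were read for 6 of the 10 genes. Among the 11 windows of these genes, 3 held a match, namely that of Sox11 and 2 of the 6 windows of Sox6. A match is a string of letters and not a measured binding site. The promoters of Sox7, Sox9, Sox17 and Sox18 were not analysed here.

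SoxD factors had 12 probe sets, of which 5 were tested. Of the 5, 1 had a positive and 4 a negative change, with a median of -0.09, and 0 had an unadjusted p under 0.05. Sox13 read 8.19, 7.73, 8.06 and 8.07 in controls 1 to 4 and 7.84, 6.80, 7.76 and 7.51 in mutants 1 to 4. Control 2 lay among the mutants, and mutant 2 was the lowest array. The change was -0.52 (SE 0.29, 95% interval -1.14 to 0.10, limma adjusted p = 0.472). On the authors' scaling, relative to the median change there, it was -0.85 (limma adjusted p = 0.13). On median-centred arrays it was -1.19 relative to the median and passed as lower (limma adjusted p = 0.00135). So did 6862 of all 27022 tested probe sets.

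Sox6, which in the mouse acts in cartilage, muscle and red cells, had 3 tested probe sets with changes of -0.30 to -0.01. Its brightest read 9.20, 9.0, 8.13 and 9.32 in the controls and 8.97, 8.82, 9.17 and 8.88 in the mutants. Apart from control 3, the arrays differed little, and the change was -0.09 (SE 0.21, 95% interval -0.53 to 0.36, limma adjusted p = 0.891). Sox5, the cartilage partner of Sox6, was near background: 6 of its 7 probe sets were removed, and the tested one was above background on 2 controls and 4 mutants. It read 7.18, 6.88, 6.40 and 6.69 in the controls and 6.55, 6.94, 7.33 and 7.05 in the mutants, with a change of 0.15 (SE 0.39, 95% interval -0.68 to 0.98, limma adjusted p = 0.898). An interval this wide leaves both a rise and a fall of the size seen for Sox9 possible.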

How the data were processed

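Signal was measured on 8 Affymetrix mouse arrays, 1 per pool, after isothermal amplification of 50 ng of total RNA. The deposited values are linear intensities; the submitters' processing notes name MAS5, without a version, as the authors' tool. The plain mean was 714.971 on every array, while medians ran from 71.5 to 268. According to the series' design text the authors dropped 2 noisy controls, which it does not name, so all 4 controls were used.

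Intensities were taken as log2(signal + 16), which understates changes of dim genes, and quantile normalized because trimmed means differed 1.12-fold, above a limit of 1.1. The 64 array controls and the dimmest 40% of probe sets were left out, leaving 27022. A probe set was above background where it exceeded the 90th percentile of 27 bacterial controls of that array. The groups were compared with limma 3.58.1 in R 4.3.3 (arrayWeights, eBayes with trend and robust), two-sided, with Benjamini-Hochberg adjustment over all tested probe sets. Means and SDs are unweighted. The number of arrays limits the precision. On simulated data with 200 changed probe sets, the fit recovered 17.5% of changes of 0.5, 45.5% of 1 and 78.5% of 2 in log2. It made 5, 13 and 8 false calls there, and 0 where nothing was changed. The simulated noise was independent and normal, with the spreads and array weights of the fit itself. Shifts shared by many probe sets of an array were not simulated, so the rates may differ for the real arrays.

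Gene names came from the platform annotation: 34958 probe sets had 1 symbol, 932 several and 9211 none. The text names all 10 Sox genes, up to 4 members per list with an unadjusted p under 0.05, the 3 genes most like the brightest probe set of a subgroup, Gata4 and Tek. Col9a3, the dimmer Hapln1 and Vcam1 probe sets, Nr2f2, Ttr, Tubb3 and Tead2 were named after their values were seen. The Sox genes, the lists and the doubt about controls 2 and 3 were chosen with earlier results of these data known. Alternatives covered scaling, pseudocount, filter, weights, controls kept, RNA integrity, a replicate block and each array left out.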

Additional observations from a re-analysis of the deposited data

Results flagged for a closer look

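Within each group of 4 arrays, the highest and lowest values of the 23 tested Sox probe sets were compared with the rest of the group. Of 46 such groups, 1 held an array that stood apart, against about 5% of groups by chance. On the brightest Sox9 probe set, control 4 read 12.40, below the 12.70 to 12.76 of the other 3 controls and above the 11.97 to 12.25 of the mutants. Without control 4 the change of this probe set was -0.63 (limma adjusted p = 0.0169), against -0.54 with it. In that fit 387 of all 27022 tested probe sets passed as lower, against 5 with control 4.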

How the results depend on the processing

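No Sox probe set passed as higher or lower in the reported fit, and all 27022 gave 7 higher and 5 lower. On the authors' scaling 1 Sox probe set (Sox7) was higher, with 41 and 22 of all. With median-centred arrays the counts were 16 and 1 for Sox and 17322 and 1832 of all. Relative to the median change of 1.13 they were 2 and 5 for Sox and 3256 and 6862 of all 27022. A pseudocount of 64 gave 1 lower Sox probe set (Sox9) and 22 and 12 of all, no filter 1 lower (Sox9) and 14 and 12, and equal weights 1 lower (Sox9) and 10 lower of all. Without controls 2 and 3, 1 was higher and 1 lower of all, with or without weights, and with RNA integrity as a covariate 2 and 2. The replicate block gave 1 higher (Sox7, 0.98) and 1 lower (Sox9, -0.57) Sox probe set and 26 and 34 of all. The replicate numbers were not treated as pairs, because deviations of same-numbered arrays correlated at -0.115, 0.006, -0.126 and 0.169. With single arrays left out, 0 to 2 Sox probe sets were higher and 0 to 1 lower, and 3 to 1402 higher and 2 to 387 lower of all, the largest counts without control 1 or control 4.

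Of 247 values for 13 named probe sets under 19 alternatives, 14 changed sign, none past the threshold. On the authors' scaling, relative to its median change of -0.10, Sox11 was 0.16 and Sox5 -0.40. With median-centred arrays Sox11 was 0.58, Sox4 0.22, Sox6 0.15, Sox18 -0.09 and Sox5 -0.68. Sox6 was 0.05 with equal weights, 0.36 without control 1 and 0.31 without control 4. Sox11 was 0.04 without control 1 and 0 without control 4 and with the block, and Sox5 was -0.03 without mutant 3. Over the fits that left out 1 array, Sox11 ran from -0.05 to 0.04, Sox6 from -0.21 to 0.36 and Sox5 from -0.03 to 0.45. The cause was not tested. Of 190 values for the 10 other tested probe sets, 30 changed sign.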

Other observations

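Of 10 further Sox genes, 3 were tested, all with negative changes and a median of -0.43. Sox2, a factor of foregut and neural progenitors, read 8.03, 6.65, 7.5 and 6.79 in controls 1 to 4 and 7.14, 6.71, 5.95 and 4.69 in mutants 1 to 4. It was above background on 3 arrays of each group, and its change was -1.62 (SE 0.60, limma adjusted p = 0.316). Sox3 changed by -0.43 and Sox30 by -0.17, with limma adjusted p values of 0.628 and 0.915. The SoxE genes Sox8 and Sox10, known from neural crest and its derivatives, did not pass the filter on low signal.

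Markers of other cell types in the pools gave these values. Of 10 cardiomyocyte markers all had positive changes (median 0.15, summed signal 90294 to 94835 on controls and 99042 to 101815 on mutants), and so had 7 of 7 tested epicardial markers (median 0.56, 4980 to 6292 and 7127 to 10374). Of 7 tested erythroid markers all had negative changes (median -0.20, 37614 to 57409 and 38119 to 48143). Neural crest and neuronal markers had 2 positive and 2 negative changes among 4 tested (median 0.11, 353 to 757 and 809 to 903), and foregut and liver markers 3 negative among 3 tested (median -0.72, 336 to 761 and 130 to 1304). On median-centred arrays, relative to the median of all tested probe sets, the erythroid list had 4 positive and 3 negative changes with a median of 0.33, and the neural list 1 and 3 with a median of -0.37. The cardiomyocyte (0.67), epicardial (0.88) and foregut and liver (-2.04) medians kept their sign there. Their part in the Sox values was not tested.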
